A study of Mus musculus with 24 samples.

Results

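The comparison of skin from mice with alopecia areata (AA) and skin from healthy mice covered 12 of the 24 libraries of the series, 6 AA and 6 healthy. Libraries were chosen by the group given in the sample labels, and all genes of the deposited count table were read. All mice were female C3H/HeJ, sampled at about 30 weeks of age from the dorsal skin (about 50 mg), with no allele or transgene named for any group. AA was brought on by grafting skin of affected mice of the same strain, and the AA mice had fully developed hair loss when they entered a follow-up of 12 weeks, over which the healthy mice were followed too. The labels give no treatment for both groups, but the AA sample titles hold Vec12w, while the study describes its AA group followed beside the treated mice as untreated and without intervention. The other 12 libraries come from AA mice given a JAK1 inhibitor and from the same mice after treatment ended. They entered the filter, the normalization and the estimate of spread, and with the 12 AA and healthy libraries alone 15187 genes passed the filter. Libraries carry the letters A to F within each group, and the labels do not say which cage, graft donor or day a letter stands for.

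AA is an autoimmune hair loss in which T cells gather around the lower part of growing hair follicles. The follicle passes through growth (anagen), regression (catagen) and rest (telogen), and stem cells in a region called the bulge renew it. In mouse skin the dermal fat layer, vessels and nerves change with this cycle as well, so whole skin RNA holds keratinocytes, fibroblasts, fat cells, endothelium, Schwann cells, smooth muscle, resident mast cells and infiltrating leukocytes together. The study's histology describes healthy follicles at rest and follicles in growth in AA skin. The groups thus differ in hair cycle stage as well as in disease, and the part of each in the changes was not tested.

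Deposited counts summed to 3859132 to 8472874 per library in AA skin and 3649611 to 6407908 in healthy skin. Genes encoded on the mitochondrial genome took 2.51 to 3.89% of counts in AA and 2.38 to 5.95% in healthy libraries. Spearman's correlation over the tested genes, given as a description, was 0.942 to 0.987 among healthy libraries, 0.953 to 0.983 among AA libraries and 0.879 to 0.941 between the groups. Some healthy libraries stood apart. Skeletal muscle fibre genes, which are active in the muscle sheet under the skin, held 0.0458% and 0.0387% of counts in healthy A and E, 0.475% in healthy C and 0.706 to 2.40% in the other 9 libraries. Healthy F was highest of its group in hair keratin RNA (0.0157% of counts, group median 0.00216%), and healthy B was the one nearest to the AA libraries in several families described here.

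Of 16248 genes that passed the filter on low counts, 3394 (20.9%) were higher and 3139 (19.3%) lower in AA skin at an adjusted p below 0.05 (edgeR's quasi-likelihood test with Benjamini-Hochberg adjustment over all genes tested). The words rose and fell are used only of genes past that test. Counts of family members given below stand beside 20.9% higher and 19.3% lower of all genes. Levels are CPM, the count of a gene relative to its library total, with TMM normalization as mean ± SD of 6 libraries, and log2 fold changes are AA over healthy ± standard error. The median rise was 0.67 and the median fall -0.70 on the log2 scale, so most called changes were under 2-fold. Rises had the longer tail. Over 8-fold were 273 rises and 45 falls, and at the thresholds of the study (adjusted p below 0.001 and more than 4-fold) 408 genes (2.51%) were higher and 157 (0.966%) lower. Without healthy A and E, 2844 genes were higher and 2691 lower, and 225 and 137 passed the thresholds of the study. Without healthy B the counts were 3692 and 3418, and without healthy F 3112 and 2987. Fitted on the 12 libraries alone, which leaves out the treated groups, 2612 genes were higher and 2632 lower, and 293 and 89 passed the thresholds of the study.

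Called genes were found at every level of abundance. Rises of more than 4-fold numbered 239 of 5299 genes between 1 and 10 CPM. Between 10 and 100 CPM there were 181 of 8824, and between 100 and 1000 CPM 42 of 2035. Of the 61 genes with a mean of 1000 CPM or more, 10 were higher and 13 lower, and between 100 and 1000 CPM 577 of 2035 were higher and 397 lower. Falls of more than 4-fold numbered 101 between 1 and 10 CPM and 3 between 100 and 1000 CPM. The deposited TPM table (transcript levels scaled for gene length and library) places the middle of the comparison elsewhere. There the median difference of all genes was -0.29 on the scale of log2(TPM + 0.1), against 0.0011 in counts, and 641 genes were higher and 1987 lower. With each library centred on its median TPM, 2497 were higher and 3125 lower. Rises given here are therefore relative to the middle of all genes, and where a family's median changes sign in uncentred TPM this is stated with it.

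**Figure D1:**
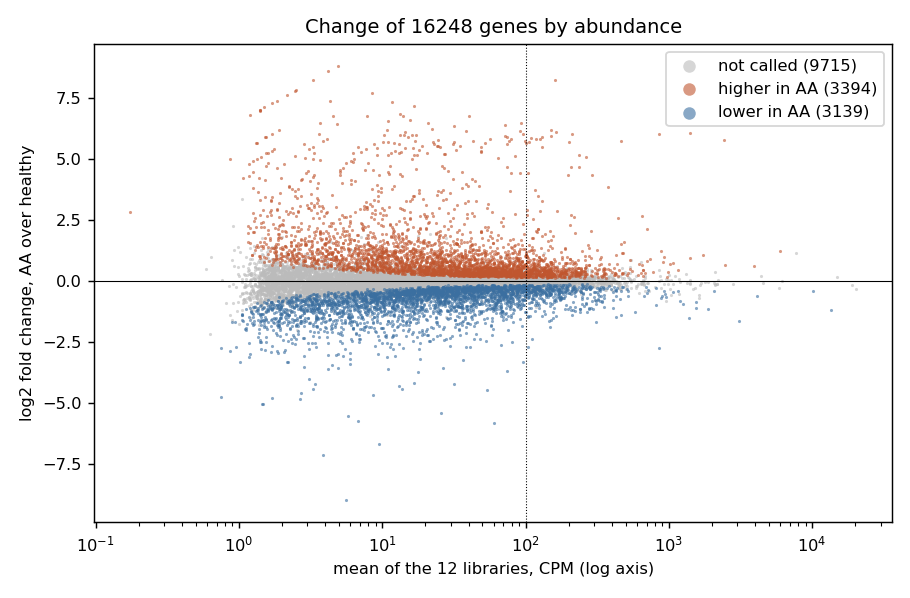
Log2 fold change of AA over healthy skin (vertical axis) against the mean CPM of the 12 libraries (horizontal log axis) for 16248 genes, each point a gene, with called rises in orange, called falls in blue and a dotted line at 100 CPM. Rises of more than 8-fold (273) outnumber falls of that size (45), and most called genes lie within 2-fold of no change.

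Among abundant genes, moderate changes were about as common downwards as upwards with TMM normalization. Of 2096 genes with a mean of at least 100 CPM, 189 (9.02%) rose and 168 (8.02%) fell by 0.5 to 2 on the log2 scale. That balance depends on the scaling. With upper-quartile scaling 154 rose and 200 fell, in centred log2(TPM + 0.1) 154 and 204, and without centring 39 and 250. The rises with the smallest adjusted p included interferon-inducible genes and genes of other functions. Adar (ENSMUSG00000027951, GRCm38 chr3:89715022-89753446), which edits adenosine in double-stranded RNA, ran from 57.3 to 76.4 CPM in the healthy libraries, with a median of 64.3, and from 106 to 184 CPM in the AA libraries, with a median of 162. The groups did not overlap, and Adar rose from 65.3 ± 6.44 CPM (healthy) to 157 ± 27.7 CPM (AA) (log2 fold change 1.27 ± 0.13, adjusted p = 3.3e-07). Its interferon-inducible neighbours in this ranking were Dtx3l, a ubiquitin ligase partner of PARP9, Trim25, a ligase that acts on the RNA sensor RIG-I, and Parp14, an ADP-ribosyltransferase. Dtx3l rose by 1.75 ± 0.19, Trim25 by 0.93 ± 0.11 and Parp14 by 1.96 ± 0.23 on the log2 scale (adjusted p at most 2.5e-06).

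The other abundant rises had no such shared label. Skil (ENSMUSG00000027660, GRCm38 chr3:31095058-31122577), which encodes SnoN, a repressor of TGF-beta signalling, ran from 72.8 to 96.0 CPM in the healthy libraries, with a median of 84.1, and from 143 to 188 CPM in the AA libraries, with a median of 165. Every AA library was above every healthy one (log2 fold change 0.99 ± 0.11, adjusted p = 8.3e-07). Epha4, an ephrin receptor, rose from 96.9 ± 12.6 CPM (healthy) to 169 ± 13.8 CPM (AA) (log2 fold change 0.81 ± 0.085, adjusted p = 5.6e-07). Mapk6, which encodes the atypical kinase ERK3, rose from 70.1 ± 16.5 CPM (healthy) to 154 ± 24.8 CPM (AA) (log2 fold change 1.14 ± 0.13, adjusted p = 1.0e-06). Pabpc1 binds the poly(A) tail of messenger RNA and rose from 330.1 ± 29.6 CPM (healthy) to 543 ± 58.7 CPM (AA) (log2 fold change 0.72 ± 0.084, adjusted p = 1.6e-06). Slc39a6 (ENSMUSG00000024270, GRCm38 chr18:24579881-24603817), a zinc importer, ran from 48.9 to 114 CPM in the healthy libraries, with a median of 61.7, and from 135 to 186 CPM in the AA libraries, with a median of 163. Healthy B held the highest healthy value and the groups still did not overlap (log2 fold change 1.27 ± 0.15, adjusted p = 2.3e-06). Arl5a, a small GTPase of the Golgi, and Rbbp6, a ubiquitin ligase that binds p53 and RB, rose by 0.86 ± 0.10 and 0.68 ± 0.086 (adjusted p at most 4.2e-06).

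The abundant moderate falls of smallest adjusted p were of several kinds. Those that act on the cytoskeleton or in the matrix are given first. Gsn (ENSMUSG00000026879, GRCm38 chr2:35256380-35307892), the actin-severing protein gelsolin, ran from 1974 to 2580.2 CPM in the healthy libraries, with a median of 2055, and from 752 to 1229.8 CPM in the AA libraries, with a median of 978. Healthy F held the highest value, and the groups did not overlap (log2 fold change -1.11 ± 0.12, adjusted p = 7.1e-07). Tns1, a linker of integrins to actin, fell from 381 ± 52.5 CPM (healthy) to 174 ± 32.7 CPM (AA) (log2 fold change -1.13 ± 0.12, adjusted p = 7.1e-07). Utrn, the relative of dystrophin called utrophin, fell from 575 ± 79.5 CPM (healthy) to 344 ± 37.4 CPM (AA) (log2 fold change -0.74 ± 0.089, adjusted p = 2.0e-06). Kif21a, a kinesin motor, Clasp2, which binds microtubule ends, and Ehd2, a protein of caveolae, fell, with log2 fold changes of -1.10 ± 0.13, -0.86 ± 0.093 and -0.85 ± 0.10 (adjusted p at most 1.9e-06). In the matrix, Tnxb, which encodes tenascin X, fell from 815 ± 125 CPM (healthy) to 337 ± 85.8 CPM (AA) (log2 fold change -1.27 ± 0.15, adjusted p = 1.8e-06). Tgfbi, a secreted matrix protein induced by TGF-beta, fell from 380.0 ± 63.3 CPM (healthy) to 159 ± 41.7 CPM (AA) (log2 fold change -1.26 ± 0.14, adjusted p = 9.7e-07).

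The glucocorticoid receptor gene was in the same set. Nr3c1 (ENSMUSG00000024431, GRCm38 chr18:39410545-39519421) ran from 209 to 375 CPM in the healthy libraries, with a median of 351, and from 121 to 187 CPM in the AA libraries, with a median of 141. Healthy B was the lowest healthy library and still lay above every AA library (log2 fold change -1.14 ± 0.13, adjusted p = 1.5e-06). Trim2, a ubiquitin ligase, had the smallest adjusted p of the abundant moderate falls. It went from 287 ± 28.9 CPM (healthy) to 125 ± 17.5 CPM (AA) (log2 fold change -1.20 ± 0.11, adjusted p = 1.0e-07). Calm2, a calmodulin gene, fell from 372 ± 30.02 CPM (healthy) to 233 ± 14.1 CPM (AA) (log2 fold change -0.67 ± 0.069, adjusted p = 4.2e-07). Calm2 shares its protein with other calmodulin genes, but not its transcript. Atrnl1, an attractin relative, fell as well (log2 fold change -0.60 ± 0.063, adjusted p = 5.2e-07).

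**Figure D2:**
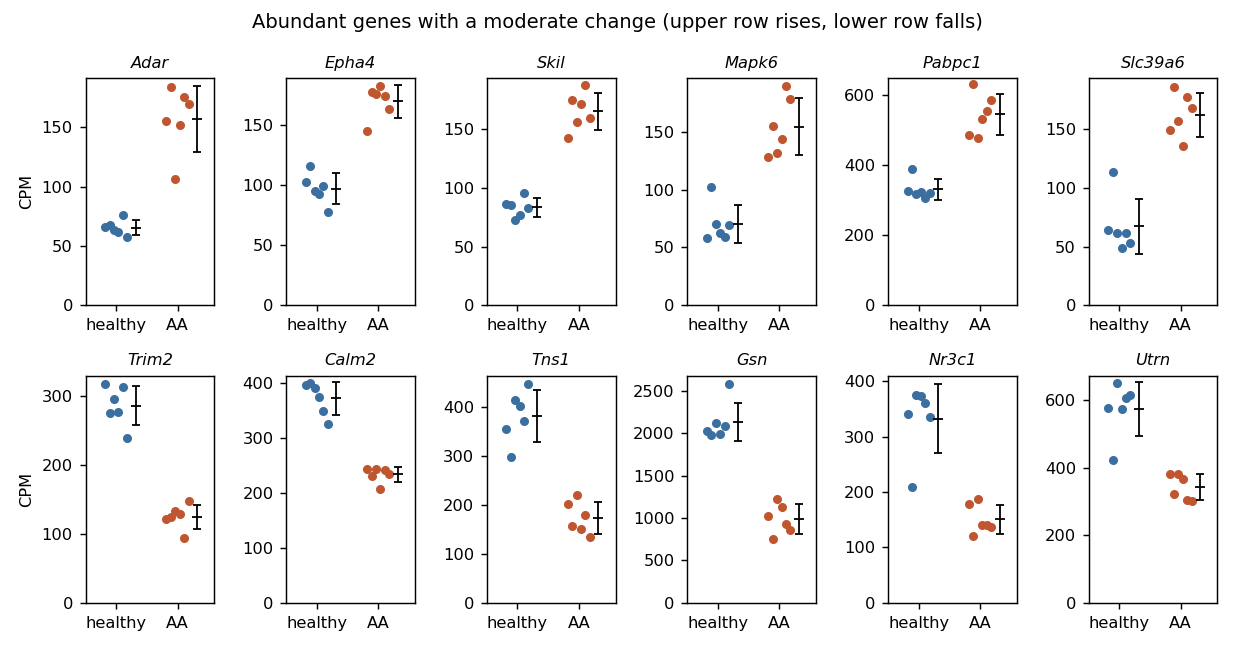
CPM of 12 abundant genes with a moderate change in each of the 6 healthy and 6 AA libraries (points), with mean ± SD beside them and axes from 0. The upper row holds 6 rises and the lower row 6 falls, and in each panel the AA libraries lie wholly on one side of the healthy ones.

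Promoter sequences are shown for 4 genes to set the letters of the interferon-stimulated response element (ISRE, searched as GAAANNGAAA on both strands) beside the direction of change. Sequences are from RefSeq on GRCm38.p6, 250 bases before to 50 after the gene start, and 3.99% of the 27025 genes in that table hold the motif. Of the largest changes and the abundant moderate changes named here by rule, 17 rises and 22 falls had a promoter in the table, and the motif was in 0 of the rises and 2 of the falls, Trim2 and Tgfbi. Irgm1, an interferon-inducible GTPase, and Oas3, an oligoadenylate synthetase, were added after their values were seen, as risen genes that hold it. The motif is in capitals below.
Irgm1: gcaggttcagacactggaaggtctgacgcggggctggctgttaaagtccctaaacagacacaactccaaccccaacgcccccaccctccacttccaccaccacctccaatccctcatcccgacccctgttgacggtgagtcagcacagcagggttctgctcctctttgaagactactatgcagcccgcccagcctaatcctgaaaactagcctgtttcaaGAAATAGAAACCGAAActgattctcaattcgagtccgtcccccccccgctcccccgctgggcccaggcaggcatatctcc
Oas3: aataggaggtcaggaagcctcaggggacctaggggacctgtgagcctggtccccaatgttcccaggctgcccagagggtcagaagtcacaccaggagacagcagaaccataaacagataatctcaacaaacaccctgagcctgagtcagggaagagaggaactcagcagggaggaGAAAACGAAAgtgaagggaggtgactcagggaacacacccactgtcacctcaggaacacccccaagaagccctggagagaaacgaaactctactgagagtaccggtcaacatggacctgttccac
Tgfbi: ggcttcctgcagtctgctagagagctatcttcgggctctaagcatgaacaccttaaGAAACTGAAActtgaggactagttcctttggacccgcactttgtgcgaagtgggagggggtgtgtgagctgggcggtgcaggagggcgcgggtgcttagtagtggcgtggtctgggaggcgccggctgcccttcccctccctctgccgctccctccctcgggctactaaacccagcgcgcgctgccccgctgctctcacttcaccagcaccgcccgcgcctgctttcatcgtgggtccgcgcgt
Trim2: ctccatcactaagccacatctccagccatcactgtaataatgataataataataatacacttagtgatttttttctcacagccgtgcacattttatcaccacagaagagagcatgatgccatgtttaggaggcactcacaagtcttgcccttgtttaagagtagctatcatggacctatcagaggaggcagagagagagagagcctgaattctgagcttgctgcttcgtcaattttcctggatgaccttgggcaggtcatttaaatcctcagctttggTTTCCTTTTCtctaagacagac
The windows are chr11:48871371-48871670, minus strand for Irgm1, chr5:120777610-120777909, minus strand for Oas3, chr13:56609336-56609635, plus strand for Tgfbi and chr3:84212789-84213088, minus strand for Trim2, each printed 5′ to 3′ on the strand of the gene. Irgm1 holds the letters 2 times, in overlap, and the other 3 once. Irgm1 rose from 24.1 ± 3.76 CPM (healthy) to 235 ± 69.03 CPM (AA) (log2 fold change 3.29 ± 0.29, adjusted p = 1.7e-07) and Oas3 from 4.40 ± 0.882 CPM (healthy) to 80.5 ± 32.6 CPM (AA) (log2 fold change 4.17 ± 0.35, adjusted p = 6.7e-08), while Tgfbi and Trim2 fell. A match is a description of letters and not of a bound site. Promoters were matched for 75.2% of the genes that rose and 75.0% of those that fell, under the 80% needed for a comparison of motif shares between risen and fallen genes, so that comparison is void.

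The largest rises named by rule were mostly genes of the hair shaft and the inner root sheath. Of 13 tested hair shaft and matrix markers all 13 rose (median 5.74), and the class of hair shaft keratins held 0.00426 ± 0.00574% of counts in healthy and 0.230 ± 0.128% in AA skin (exact permutation test, two-sided, adjusted p = 0.0058, n = 6). Healthy F held the highest healthy share, and without it all 13 markers still rose, with a median of 7.54. Vsig8 (ENSMUSG00000049598, GRCm38 chr1:172555938-172563717), an immunoglobulin-domain protein of the hair, rose from 1.69 ± 2.15 CPM (healthy) to 142 ± 88.3 CPM (AA) (log2 fold change 6.38 ± 1.06, adjusted p = 2.6e-05). S100a3, a calcium-binding protein of the hair cuticle, rose from 4.14 ± 3.48 CPM (healthy) to 255 ± 116 CPM (AA) (log2 fold change 5.92 ± 0.83, adjusted p = 2.0e-05). Melanocyte genes moved with them, with 7 of 8 higher and 0 lower.

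The largest falls named by rule included enzymes, carriers, receptors and secreted regulators. The rule for the largest rises and falls took only genes whose groups did not overlap, so that is not a result for them. Over all genes tested 14.3% did not overlap between the groups, against 39.0% of the genes that rose and 31.6% of those that fell. Cyp2e1 (ENSMUSG00000025479, GRCm38 chr7:140763739-140774987), a cytochrome P450 of small molecules, ran from 28.5 to 95.0 CPM in the healthy libraries, with a median of 72.7, and from 1.15 to 12.4 CPM in the AA libraries, with a median of 7.06. Cyp2e1 fell (log2 fold change -3.25 ± 0.40, adjusted p = 3.3e-06). Grem1 (ENSMUSG00000074934, GRCm38 chr2:113746164-113758646), a secreted inhibitor of BMP signals, ran from 26.2 to 93.0 CPM in the healthy libraries, with a median of 79.1, and from 6.08 to 15.6 CPM in the AA libraries, with a median of 10.6. It fell more than 6-fold (log2 fold change -2.70 ± 0.33, adjusted p = 3.4e-06). Igfbp3 (ENSMUSG00000020427, GRCm38 chr11:7206086-7213923), which binds insulin-like growth factors, ran from 159 to 230.0 CPM in the healthy libraries, with a median of 178, and from 16.3 to 35.4 CPM in the AA libraries, with a median of 28.4. The lowest healthy library held several times the highest AA value (log2 fold change -2.69 ± 0.23, adjusted p = 1.0e-07). Abca5, a lipid transporter, fell from 185 ± 25.6 CPM (healthy) to 35.6 ± 9.88 CPM (AA) (log2 fold change -2.37 ± 0.19, adjusted p = 6.7e-08), and Paqr7, a membrane progestin receptor, from 96.3 ± 33.6 CPM (healthy) to 20.6 ± 12.1 CPM (AA) (log2 fold change -2.22 ± 0.34, adjusted p = 3.9e-05). Prlr, the prolactin receptor, fell from 121 ± 25.03 CPM (healthy) to 30.3 ± 14.4 CPM (AA) (log2 fold change -1.996 ± 0.26, adjusted p = 8.0e-06). The remaining falls of this rank were the cytochrome Cyp4b1 (-2.17 ± 0.27), the aldehyde dehydrogenase Aldh3a1 (-2.13 ± 0.31), the retinol dehydrogenase Adh7 (-1.96 ± 0.24) and the guidance factor Sema3e (-2.02 ± 0.28), with adjusted p at most 2.2e-05. One fall left no count at all in AA skin, that of Grik1, a kainate receptor subunit, which had 11.1 ± 5.46 CPM in healthy skin (adjusted p = 5.1e-06). In the other direction, 13 of the 16248 genes tested rose with no count in any healthy library. A gene with no count in 1 group could pass the filter only through the other groups, so the filter shaped both numbers.

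The CPM of a list's members, summed in each library, overlapped between the groups for most of the 81 lists. Those of fibroblasts, T cells, melanocytes and glycolysis were among the lists that overlapped. In whole skin, fewer cells of a type and less RNA per cell cannot be told apart. With that limit, keratinocyte genes split by compartment. Of 10 bulge and hair germ markers 6 fell and 0 rose (median -0.77), and their summed level was 2124 to 3771 CPM in healthy (median 3445) and 969 to 1766 CPM in AA skin (median 1259), with no overlap. Krt15 (ENSMUSG00000054146, GRCm38 chr11:100131758-100135928), the keratin of bulge and basal cells, ran from 870.0 to 1819 CPM in the healthy libraries, with a median of 1666, and from 109 to 384 CPM in the AA libraries, with a median of 170.1. In CPM it carried most of the summed fall (log2 fold change -2.72 ± 0.29, adjusted p = 9.3e-07). Nfatc1 (ENSMUSG00000033016, GRCm38 chr18:80606205-80713071), a factor that keeps bulge stem cells quiescent, ran from 86.4 to 129.8 CPM in the healthy libraries, with a median of 113, and from 27.8 to 46.0 CPM in the AA libraries, with a median of 41.3. It fell too (log2 fold change -1.45 ± 0.13, adjusted p = 1.0e-07), but Lgr5 (41.5 ± 9.56 CPM in healthy skin, 40.8 ± 18.8 CPM in AA) and Sox9 (63.1 ± 15.6 CPM in healthy skin, 67.1 ± 31.8 CPM in AA), both also stem cell genes, did not pass the test.

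Basal and suprabasal genes moved in both directions. Dst (ENSMUSG00000026131, GRCm38 chr1:33908225-34308661), the linker of hemidesmosomes to keratin called dystonin, ran from 2121 to 2991 CPM in the healthy libraries, with a median of 2594, and from 866 to 1392 CPM in the AA libraries, with a median of 1252. It fell without overlap (log2 fold change -1.13 ± 0.17, adjusted p = 2.2e-05), as did its partner Col17a1 (log2 fold change -0.94 ± 0.18, adjusted p = 2.1e-04) and the laminin chain Lamb3 (log2 fold change -0.90 ± 0.12, adjusted p = 9.8e-06). In the same basal list Krt14 rose from 1942 ± 773 CPM (healthy) to 3022 ± 731 CPM (AA) (log2 fold change 0.64 ± 0.20, adjusted p = 0.013), a call lost without healthy A and E (adjusted p = 0.057), and Krt5 did not pass (2201 ± 626 CPM in healthy skin, 2015 ± 425 CPM in AA). Of the suprabasal list 3 of 14 rose and 4 fell. Casp14, the caspase of cornification, rose from 56.0 ± 35.2 CPM (healthy) to 156 ± 37.9 CPM (AA) (log2 fold change 1.47 ± 0.27, adjusted p = 2.2e-04) and Krt1 rose from 1111 ± 557 CPM (healthy) to 2344 ± 857 CPM (AA) (log2 fold change 1.08 ± 0.31, adjusted p = 0.0079). Flg2, a filaggrin relative, fell from 1544 ± 359 CPM (healthy) to 864 ± 269 CPM (AA) (log2 fold change -0.84 ± 0.22, adjusted p = 0.0041), and the cornified envelope gene Lor did not pass (526 ± 316 CPM in healthy skin, 486 ± 185 CPM in AA). Epidermal keratins as a class, which includes Krt15, held 1.57 ± 0.375% of counts in healthy and 1.41 ± 0.304% in AA skin (exact permutation test, adjusted p = 0.50). The class named stress keratins (Krt6a, Krt6b, Krt16 and Krt17) held 0.124 ± 0.0248% of counts in healthy and 0.418 ± 0.125% in AA skin (exact permutation test, adjusted p = 0.0058).

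Fibroblast markers fell in part. Of 12 tested 6 fell and 0 rose. Dcn (ENSMUSG00000019929, GRCm38 chr10:97479609-97518143), the collagen-binding proteoglycan decorin, ran from 215 to 919 CPM in the healthy libraries, with a median of 721, and from 149 to 446 CPM in the AA libraries, with a median of 260.0. The groups overlapped and Dcn fell (log2 fold change -1.38 ± 0.27, adjusted p = 3.7e-04). Lum, its relative lumican, and Pi16, a marker of adventitial fibroblasts, fell, with log2 fold changes of -1.45 ± 0.36 and -1.27 ± 0.28 (adjusted p at most 0.0030), but the fibrillar collagens Col1a1 (log2 fold change 0.039 ± 0.26, adjusted p = 0.93) and Col3a1 (log2 fold change -0.057 ± 0.28, adjusted p = 0.90) did not pass. Fat cell genes fell more widely, 10 of 12 with a median of -1.45, though their summed level overlapped, 1206 to 6562 CPM in healthy (median 3145) and 828 to 2603 CPM in AA skin (median 1336). Adipoq (ENSMUSG00000022878, GRCm38 chr16:23146536-23158028), the hormone adiponectin, ran from 36.4 to 289 CPM in the healthy libraries, with a median of 124, and from 10.8 to 63.1 CPM in the AA libraries, with a median of 17.8 (log2 fold change -2.50 ± 0.42, adjusted p = 9.7e-05). AA library C was the highest of its group and reached into the healthy range.

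Vessel genes fell in both vascular beds. All 11 tested blood endothelial markers fell (median -1.25), and their summed level was 231 to 477 CPM in healthy (median 350.3) and 85.7 to 192 CPM in AA skin (median 147), with no overlap. Emcn (ENSMUSG00000054690, GRCm38 chr3:137341067-137432185), the sialomucin of capillaries and veins, ran from 7.91 to 13.9 CPM in the healthy libraries, with a median of 10.6, and from 0.793 to 3.91 CPM in the AA libraries, with a median of 2.28 (log2 fold change -2.18 ± 0.24, adjusted p = 6.8e-07). Pecam1 (ENSMUSG00000020717, GRCm38 chr11:106654217-106750628), the adhesion molecule CD31, ran from 41.3 to 93.5 CPM in the healthy libraries, with a median of 72.3, and from 16.4 to 40.2 CPM in the AA libraries, with a median of 30.3 (log2 fold change -1.25 ± 0.18, adjusted p = 1.8e-05). Both separated the groups. Of 7 lymphatic markers 5 fell and 0 rose, with summed levels of 131 to 264 CPM in healthy (median 187) and 29.1 to 90.6 CPM in AA skin (median 53.6). Prox1 (ENSMUSG00000010175, GRCm38 chr1:190118035-190170714), the master factor of lymphatic identity, ran from 6.68 to 14.8 CPM in the healthy libraries, with a median of 12.5, and from 0.689 to 3.43 CPM in the AA libraries, with a median of 2.07 (log2 fold change -2.52 ± 0.29, adjusted p = 1.0e-06). Reln (ENSMUSG00000042453, GRCm38 chr5:21884454-22344702), a secreted protein of lymphatic endothelium in skin, ran from 63.8 to 94.1 CPM in the healthy libraries, with a median of 81.4, and from 6.87 to 23.01 CPM in the AA libraries, with a median of 15.1. Reln fell (log2 fold change -2.38 ± 0.23, adjusted p = 2.1e-07). Neither gene overlapped between the groups, although healthy B held the lowest healthy Prox1. Pdpn, a marker shared with stromal cells and keratinocytes, did not pass (14.7 ± 3.45 CPM in healthy skin, 20.8 ± 9.28 CPM in AA).

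The receptors of vascular growth factors did not move as one. Kdr (VEGF receptor 2) fell from 55.8 ± 13.8 CPM (healthy) to 16.03 ± 9.12 CPM (AA) (log2 fold change -1.79 ± 0.25, adjusted p = 9.7e-06) and Flt4 (VEGF receptor 3) from 24.4 ± 5.63 CPM (healthy) to 6.16 ± 2.08 CPM (AA) (log2 fold change -1.98 ± 0.22, adjusted p = 8.3e-07). Flt1 (VEGF receptor 1) instead rose from 44.7 ± 17.9 CPM (healthy) to 121 ± 49.7 CPM (AA) (log2 fold change 1.44 ± 0.28, adjusted p = 3.8e-04), as did the ligand gene Vegfa (log2 fold change 0.85 ± 0.26, adjusted p = 0.011), whose call was lost without healthy A and E (adjusted p = 0.082). Over the whole list of VEGF, PDGF and angiopoietin genes 10 of 19 fell and 2 rose. Smooth muscle and pericyte genes fell for 7 of 15 and rose for 1. Myh11, the smooth muscle myosin, fell from 233 ± 68.5 CPM (healthy) to 64.0 ± 25.5 CPM (AA) (log2 fold change -1.86 ± 0.26, adjusted p = 1.5e-05), and Rgs5, a pericyte gene, from 66.9 ± 19.5 CPM (healthy) to 28.5 ± 10.97 CPM (AA) (log2 fold change -1.22 ± 0.22, adjusted p = 1.5e-04). Smtn, which encodes smoothelin, was the one that rose (log2 fold change 0.64 ± 0.14, adjusted p = 8.1e-04). Des, which skeletal fibres share, did not pass (241 ± 195 CPM in healthy skin, 334 ± 133 CPM in AA).

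Nerve-associated genes fell as well. Of 11 Schwann cell markers 8 fell (median -0.87) and 0 rose, with summed levels of 517 to 584 CPM in healthy (median 558) and 365 to 477 CPM in AA skin (median 395) and no overlap. Without healthy A and E 5 fell. Cdh19 (ENSMUSG00000047216, GRCm38 chr1:110888326-110977584), a cadherin of Schwann cells, ran from 13.7 to 24.997 CPM in the healthy libraries, with a median of 20.5, and from 1.34 to 4.75 CPM in the AA libraries, with a median of 2.96 (log2 fold change -2.69 ± 0.21, adjusted p = 4.0e-08). Mbp (ENSMUSG00000041607, GRCm38 chr18:82475146-82585637), myelin basic protein, ran from 93.6 to 109.5 CPM in the healthy libraries, with a median of 106, and from 52.9 to 67.9 CPM in the AA libraries, with a median of 59.2. Mbp fell (log2 fold change -0.81 ± 0.10, adjusted p = 2.6e-06), and both genes separated the groups. Erbb3, the neuregulin receptor, which keratinocytes also express, did not pass (272 ± 46.2 CPM in healthy skin, 285 ± 48.4 CPM in AA).

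Neurotrophic ligands fell beside them. Of 19 genes of neurotrophins and nerve guidance 10 fell and 1 rose. Bdnf (ENSMUSG00000048482, GRCm38 chr2:109674700-109727007), a ligand of the receptor encoded by Ntrk2, ran from 3.34 to 7.48 CPM in the healthy libraries, with a median of 5.57, and from 0 to 1.22 CPM in the AA libraries, with a median of 0.306. Every AA library was below every healthy one, with a log2 fold change of -3.51 ± 0.51 in counts (adjusted p = 2.8e-06) and -1.39 in centred TPM. Ntrk2 (ENSMUSG00000055254, GRCm38 chr13:58806569-59133970) itself ran from 61.8 to 105 CPM in the healthy libraries, with a median of 78.2, and from 17.98 to 41.6 CPM in the AA libraries, with a median of 26.95. It too fell without overlap (log2 fold change -1.50 ± 0.17, adjusted p = 1.4e-06). Ntf3 (neurotrophin 3) and Gdnf fell, with log2 fold changes of -2.54 ± 0.41 and -1.56 ± 0.23 (adjusted p at most 2.4e-05). Ret, the signalling receptor for GDNF, was the member that rose, from 6.47 ± 2.58 CPM (healthy) to 21.5 ± 6.25 CPM (AA) (log2 fold change 1.73 ± 0.35, adjusted p = 4.9e-04). Of cholinergic and adrenergic genes 9 of 20 fell and 3 rose, with summed levels of 257 to 402 CPM in healthy (median 340.0) and 158 to 216 CPM in AA skin (median 181) and no overlap. Bche, which breaks down choline esters, fell from 49.98 ± 19.8 CPM (healthy) to 9.81 ± 5.19 CPM (AA) (log2 fold change -2.35 ± 0.31, adjusted p = 6.7e-06). The adrenoceptors Adra1a (-2.16 ± 0.35) and Adra2a (-2.58 ± 0.49) fell, with adjusted p at most 1.0e-04.

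Leukocyte genes moved in opposite directions by cell type. Of 10 mast cell markers 8 fell (median -2.03) and 0 rose, and their summed level was 137 to 347 CPM in healthy (median 187) and 44.8 to 114 CPM in AA skin (median 74.5), with no overlap. Healthy F had the highest healthy sum, and without it 8 fell. Mcpt4 (ENSMUSG00000061068, GRCm38 chr14:56059629-56062313), a mast cell chymase, ran from 23.4 to 67.6 CPM in the healthy libraries, with a median of 35.9, and from 2.91 to 16.2 CPM in the AA libraries, with a median of 6.59. It fell without overlap (log2 fold change -2.24 ± 0.31, adjusted p = 9.5e-06). Cpa3 (ENSMUSG00000001865, GRCm38 chr3:20215620-20242181), mast cell carboxypeptidase, ran from 18.8 to 85.7 CPM in the healthy libraries, with a median of 39.2, and from 3.17 to 20.6 CPM in the AA libraries, with a median of 7.12 (log2 fold change -2.40 ± 0.35, adjusted p = 2.2e-05). AA library C was the highest of its group for Cpa3 and overlapped the healthy range. Kit (31.9 ± 11.4 CPM in healthy skin, 28.8 ± 6.43 CPM in AA), which melanocytes also express, and Hdc (5.38 ± 2.27 CPM in healthy skin, 7.01 ± 3.37 CPM in AA), the enzyme that makes histamine, did not pass. Monocyte markers went the other way, with 7 of 8 higher and 0 lower and overlapping summed levels of 82.9 to 259 CPM in healthy (median 166) and 168 to 395 CPM in AA skin (median 322). Plac8 (ENSMUSG00000029322, GRCm38 chr5:100553725-100572245), expressed in monocytes and lymphocytes, ran from 1.98 to 7.03 CPM in the healthy libraries, with a median of 2.77, and from 8.95 to 23.5 CPM in the AA libraries, with a median of 16.6. Healthy F was again the highest healthy library, and the groups did not overlap (log2 fold change 2.31 ± 0.35, adjusted p = 2.3e-05). F13a1, which encodes a subunit of coagulation factor XIII, was the member of the monocyte list that did not pass (54.8 ± 29.9 CPM in healthy skin, 48.2 ± 18.4 CPM in AA).

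Within the macrophage list 6 of 14 rose and 1 fell. C1qa (ENSMUSG00000036887, GRCm38 chr4:136895917-136898803), the complement subunit, ran from 7.20 to 33.3 CPM in the healthy libraries, with a median of 12.9, and from 34.4 to 91.0 CPM in the AA libraries, with a median of 58.9. Healthy F, the highest healthy library, lay just under the lowest AA library (log2 fold change 1.93 ± 0.41, adjusted p = 8.3e-04). Cd163, the haemoglobin scavenger receptor of resident macrophages, fell from 45.3 ± 21.7 CPM (healthy) to 19.7 ± 6.84 CPM (AA) (log2 fold change -1.20 ± 0.25, adjusted p = 6.5e-04), while Csf1r (86.6 ± 24.4 CPM in healthy skin, 102 ± 33.2 CPM in AA) and Mrc1 (83.3 ± 52.1 CPM in healthy skin, 111 ± 52.0 CPM in AA) did not pass. Of 11 markers of conventional dendritic cells 4 rose and 3 fell, and of 6 of Langerhans cells 2 rose and 1 fell. Itgax, the integrin CD11c, and Fscn1, the actin bundler of mature dendritic cells, rose by 1.42 ± 0.35 and 1.56 ± 0.28 on the log2 scale (adjusted p at most 0.0027). Cd209a, a lectin of dermal dendritic cells, and Cd207, the langerin of Langerhans cells, fell, with log2 fold changes of -2.24 ± 0.35 and -0.95 ± 0.20 (adjusted p at most 6.8e-04). Neutrophil genes were few and low, and 3 of 4 rose. S100a8 rose from 1.53 ± 2.09 CPM (healthy) to 6.25 ± 5.44 CPM (AA) (log2 fold change 1.99 ± 0.57, adjusted p = 0.0068) and Csf3r from 2.94 ± 0.828 CPM (healthy) to 8.50 ± 5.49 CPM (AA) (log2 fold change 1.51 ± 0.46, adjusted p = 0.011), a call lost without AA library E (adjusted p = 0.051). The gene of CD45, Ptprc, which all leukocytes express, did not pass (94.3 ± 25.8 CPM in healthy skin, 122 ± 46.7 CPM in AA), nor did Cd3e (8.20 ± 2.15 CPM in healthy skin, 9.004 ± 2.71 CPM in AA). Of 13 T cell markers 6 rose and 0 fell (median 0.86), among them Cd6, a T cell surface receptor, which rose from 0.640 ± 0.366 CPM (healthy) to 5.73 ± 2.92 CPM (AA) (log2 fold change 3.19 ± 0.73, adjusted p = 5.5e-04). Of 11 pan-leukocyte markers 3 rose. Skeletal muscle fibre genes did not move with the groups, with 0 of 15 higher, 0 lower and summed levels of 350.1 to 24176 CPM in healthy (median 11590.2) and 6835 to 18708 CPM in AA skin (median 8199). With the mean log2 CPM of these muscle genes in each library as a covariate 3484 genes were higher and 3253 lower, and 94.5% of the reported calls were kept.

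**Figure D3:**
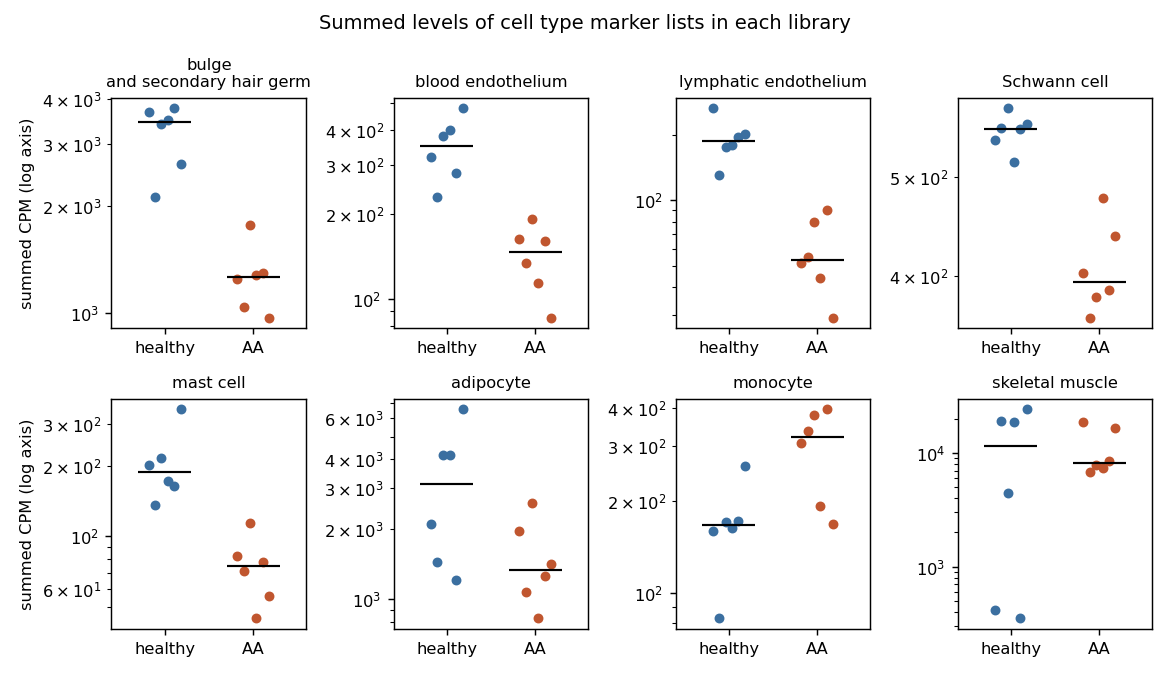
Summed CPM of 8 cell type marker lists in each healthy and AA library (points, horizontal line at the median, log axis). Bulge, blood and lymphatic endothelium, Schwann cell and mast cell lists separate the groups, with AA lower, while adipocyte, monocyte and skeletal muscle lists overlap and healthy A and E hold the lowest muscle levels.

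Gap junction genes changed in composition. Of 13 tested connexin genes 5 rose and 3 fell, and the summed level was 394 to 669.9 CPM in healthy (median 441) and 966 to 1649 CPM in AA skin (median 1423), with no overlap. Gjb2 (ENSMUSG00000046352, GRCm38 chr14:57098600-57104702), connexin 26, ran from 6.11 to 29.5 CPM in the healthy libraries, with a median of 14, and from 262 to 571 CPM in the AA libraries, with a median of 360.1. Every AA library was far above every healthy one (log2 fold change 4.67 ± 0.47, adjusted p = 9.7e-07). Gja1 (ENSMUSG00000050953, GRCm38 chr10:56377330-56402513), connexin 43, ran from 216 to 338 CPM in the healthy libraries, with a median of 219, and from 476 to 893 CPM in the AA libraries, with a median of 674 (log2 fold change 1.4999 ± 0.21, adjusted p = 1.1e-05). Gjb6, connexin 30, rose from 3.74 ± 1.01 CPM (healthy) to 44.3 ± 11.2 CPM (AA) (log2 fold change 3.54 ± 0.29, adjusted p = 4.0e-08) and Gjc1 fell (log2 fold change -0.99 ± 0.21, adjusted p = 7.5e-04). The median of the list was -0.31, but 0.10 relative to all genes in TPM, so no direction is given for the family. Healthy B had the highest healthy sum, and without it 5 higher and 3 lower were called.

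Kallikreins, serine proteases that shed cornified cells, rose for 5 of 10 and fell for 0. Klk6 (ENSMUSG00000050063, GRCm38 chr7:43824499-43832030) ran from 4.12 to 65.0 CPM in the healthy libraries, with a median of 7.02, and from 107 to 386 CPM in the AA libraries, with a median of 189.9. Healthy B alone accounted for the upper end of the healthy range, and the groups still did not overlap (log2 fold change 3.73 ± 0.56, adjusted p = 4.7e-05). Without healthy B 6 kallikreins rose. Klk7, the chymotryptic enzyme of the cornified layer, rose from 291 ± 99.8 CPM (healthy) to 644 ± 201 CPM (AA) (log2 fold change 1.14 ± 0.21, adjusted p = 1.8e-04), while Klk5 (59.8 ± 15.5 CPM in healthy skin, 67.2 ± 16.04 CPM in AA) and Klk10 (69.9 ± 30.8 CPM in healthy skin, 88.0 ± 69.4 CPM in AA) did not pass. The cathepsins, proteases of the lysosome, rose for 10 of 13 and fell for 1. Ctsc (ENSMUSG00000030560, GRCm38 chr7:88278085-88310888), the activator of granzymes and neutrophil proteases, ran from 53.9 to 115 CPM in the healthy libraries, with a median of 59.2, and from 181 to 352 CPM in the AA libraries, with a median of 227. The groups stood well apart (log2 fold change 1.83 ± 0.29, adjusted p = 4.9e-05). Ctss (ENSMUSG00000038642, GRCm38 chr3:95526786-95556403), which trims the invariant chain of MHC class II, ran from 29.2 to 51.1 CPM in the healthy libraries, with a median of 40.8, and from 81.1 to 349 CPM in the AA libraries, with a median of 111 (log2 fold change 1.93 ± 0.50, adjusted p = 0.0042). Healthy F was the highest healthy library for Ctsc and AA library E the highest AA library for Ctss, and neither gene's groups overlapped. Without healthy F 10 cathepsins rose. The abundant Ctsb and Ctsd rose by 0.87 ± 0.23 and 0.67 ± 0.17 (adjusted p at most 0.0041), and the aspartic protease Ctse rose from near absence, from 0.987 ± 0.631 CPM (healthy) to 21.2 ± 9.97 CPM (AA) (log2 fold change 4.40 ± 0.79, adjusted p = 6.3e-05). Ctsk, the collagen-degrading member, did not pass (53.7 ± 22.5 CPM in healthy skin, 34.3 ± 18.6 CPM in AA).

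Serpins and metalloproteinases were called in both directions. Of 34 serpins 10 rose and 11 fell (29.4% and 32.4%), beside 20.9% and 19.3% of all genes. Serpina3b fell from 174 ± 89.4 CPM (healthy) to 17.4 ± 20.9 CPM (AA) (log2 fold change -3.34 ± 0.63, adjusted p = 4.2e-04), and Serpinb6d from 49.2 ± 38.2 CPM (healthy) to 4.21 ± 5.33 CPM (AA) (log2 fold change -3.57 ± 0.84, adjusted p = 0.0019). Serpinb7 fell from 152 ± 23.3 CPM (healthy) to 55.2 ± 19.5 CPM (AA) (log2 fold change -1.47 ± 0.23, adjusted p = 4.4e-05), and Serpina3f rose from 1.30 ± 0.579 CPM (healthy) to 18.1 ± 9.61 CPM (AA) (log2 fold change 3.82 ± 0.62, adjusted p = 2.7e-05). Members of the Serpina3 and Serpinb6 clusters are near-identical copies, so their single values are uncertain. Among metalloproteinases and their inhibitors 5 of 19 rose and 5 fell (26.3% each), near the share of all genes. Mmp13, a collagenase, rose from 2.62 ± 5.43 CPM (healthy) to 30.3 ± 8.43 CPM (AA) (log2 fold change 3.50 ± 0.68, adjusted p = 2.7e-04). The inhibitor Timp1 rose from 1.41 ± 0.558 CPM (healthy) to 18.2 ± 16.7 CPM (AA) (log2 fold change 3.64 ± 0.71, adjusted p = 2.1e-04), while Timp2 fell from 255 ± 73.5 CPM (healthy) to 128 ± 54.5 CPM (AA) (log2 fold change -0.997 ± 0.21, adjusted p = 8.4e-04) and Timp3 did not pass (242 ± 42.2 CPM in healthy skin, 174 ± 53.6 CPM in AA). Slpi, a secreted inhibitor of neutrophil elastase, rose from 1.69 ± 1.21 CPM (healthy) to 13.9 ± 8.26 CPM (AA) (log2 fold change 3.02 ± 0.48, adjusted p = 3.0e-05).

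Basement membrane genes fell for 8 of 20 and rose for 1. Lama1 fell from 31.7 ± 31.8 CPM (healthy) to 4.61 ± 3.27 CPM (AA) (log2 fold change -2.78 ± 0.55, adjusted p = 3.5e-04) and Lamb2 from 173 ± 20.8 CPM (healthy) to 123 ± 17.9 CPM (AA) (log2 fold change -0.49 ± 0.10, adjusted p = 6.3e-04). Hspg2, which encodes perlecan, did not pass (384 ± 62.1 CPM in healthy skin, 364 ± 73.6 CPM in AA). Claudins and other tight junction genes split 5 up and 8 down of 18. The barrier claudin Cldn23 fell (log2 fold change -1.51 ± 0.18, adjusted p = 2.1e-06). Of 29 integrins 8 rose and 7 fell, near the share of all genes (20.9% and 19.3%), with the leukocyte chain Itgal among the rises (log2 fold change 1.55 ± 0.30, adjusted p = 3.3e-04).

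Growth factor genes fell more often than they rose in several families. In the insulin-like growth factor axis 6 of 13 fell and 1 rose. Besides Igfbp3, Igfbp5 (ENSMUSG00000026185, GRCm38 chr1:72857932-72874884), another binding protein gene, ran from 220.1 to 853 CPM in the healthy libraries, with a median of 570.0, and from 208 to 357 CPM in the AA libraries, with a median of 222. It fell with overlap of the groups (log2 fold change -1.11 ± 0.24, adjusted p = 9.4e-04). The receptor substrate Irs1 (-0.90 ± 0.13) and the insulin receptor Insr (-0.53 ± 0.092) fell (adjusted p at most 9.9e-05), and Igf1r did not pass (85.5 ± 7.04 CPM in healthy skin, 86.1 ± 9.53 CPM in AA). Igf1 itself did not pass either (62.9 ± 35.6 CPM in healthy skin, 40.9 ± 28.99 CPM in AA). Among EGF family ligands Btc, betacellulin, fell from 89.5 ± 12.4 CPM (healthy) to 25.3 ± 10.1 CPM (AA) (log2 fold change -1.82 ± 0.20, adjusted p = 8.9e-07), and Areg, amphiregulin, rose from 3.72 ± 1.47 CPM (healthy) to 13.2 ± 3.12 CPM (AA) (log2 fold change 1.80 ± 0.34, adjusted p = 2.0e-04). Their receptors Egfr (347 ± 30.4 CPM in healthy skin, 368 ± 36.1 CPM in AA) and Erbb2 (174 ± 28.4 CPM in healthy skin, 181 ± 30.1 CPM in AA) did not pass. The list as a whole had 4 rises and 2 falls of 15, with a median of 0.19 in counts and -0.089 in uncentred TPM. In the Notch pathway 3 rose and 8 fell of 20, the rises including the target gene Heyl (log2 fold change 2.34 ± 0.39, adjusted p = 6.9e-05) and the falls the modifiers Dtx1 (-1.52 ± 0.29) and Mfng (-1.49 ± 0.23). Of TGF-beta and activin genes 4 rose and 8 fell of 21.

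Genes of guidance cues moved both ways. Of 30 semaphorin, plexin and neuropilin genes 8 rose and 11 fell. Among secreted class 3 ligands, Sema3c fell from 225 ± 40.9 CPM (healthy) to 74.4 ± 25.04 CPM (AA) (log2 fold change -1.60 ± 0.20, adjusted p = 5.0e-06) and Sema3d from 219 ± 35.7 CPM (healthy) to 91.7 ± 32.4 CPM (AA) (log2 fold change -1.26 ± 0.28, adjusted p = 0.0010), besides Sema3e. The plexin receptor Plxna1 rose by 0.51 ± 0.11 on the log2 scale (adjusted p = 0.0011). Of 18 ephrin and Eph genes 7 rose and 4 fell, with Epha4 the rise of smallest adjusted p.

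Genes of cyclic nucleotide signalling fell for 11 of 27 and rose for 2. Pde5a, which degrades cyclic GMP, fell from 22.5 ± 5.16 CPM (healthy) to 7.02 ± 2.20 CPM (AA) (log2 fold change -1.68 ± 0.18, adjusted p = 8.3e-07), and the cyclase Adcy6 from 87.9 ± 11.3 CPM (healthy) to 45.9 ± 7.52 CPM (AA) (log2 fold change -0.94 ± 0.12, adjusted p = 4.3e-06). The cyclase Adcy7, abundant in blood cells, rose from 91.8 ± 14.7 CPM (healthy) to 147 ± 46.9 CPM (AA) (log2 fold change 0.68 ± 0.17, adjusted p = 0.0034). Potassium channel genes fell for 17 and rose for 9 of 59, with falls of Kcna1 (-2.37 ± 0.33) and Kcna6 (-2.13 ± 0.25) and a rise of Kcnh1 (2.05 ± 0.38) (adjusted p at most 2.3e-04). Trpv3, the warmth channel of keratinocytes, rose from 39.3 ± 8.66 CPM (healthy) to 85.1 ± 7.77 CPM (AA) (log2 fold change 1.11 ± 0.16, adjusted p = 1.1e-05). Piezo1, a mechanosensitive channel, rose by 0.42 ± 0.087 (adjusted p = 5.6e-04), and Trpm3, a heat channel of sensory nerves, fell (log2 fold change -3.42 ± 0.62, adjusted p = 6.8e-05).

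Solute carriers as a superfamily were close to the background, with 67 rises and 67 falls among 259 (all genes tested, 20.9% and 19.3%). Its zinc carriers are described as a group chosen after their values were seen. Zinc carriers not named here were not counted, so no direction is given for the group. The exporter Slc30a1 rose from 70.1 ± 6.22 CPM (healthy) to 217 ± 54.2 CPM (AA) (log2 fold change 1.63 ± 0.26, adjusted p = 5.5e-05), and the importers Slc39a8 from 55.1 ± 7.88 CPM (healthy) to 135 ± 34.2 CPM (AA) (log2 fold change 1.30 ± 0.20, adjusted p = 3.1e-05) and Slc39a2 from 3.73 ± 2.06 CPM (healthy) to 19.1 ± 7.70 CPM (AA) (log2 fold change 2.35 ± 0.33, adjusted p = 1.0e-05), besides Slc39a6. The zinc-binding metallothionein Mt2 rose by 1.14 ± 0.25 on the log2 scale (adjusted p = 0.0010), whereas the importer Slc39a3 fell (log2 fold change -0.39 ± 0.11, adjusted p = 0.0098). Of amino acid carriers, Slc7a8 rose from 5.83 ± 3.95 CPM (healthy) to 88.6 ± 31.0 CPM (AA) (log2 fold change 3.91 ± 0.45, adjusted p = 1.6e-06) and the arginine carrier Slc7a1 from 31.3 ± 6.83 CPM (healthy) to 82.4 ± 17.7 CPM (AA) (log2 fold change 1.397 ± 0.17, adjusted p = 2.0e-06). Slc2a12, a glucose carrier, fell from 67.4 ± 9.87 CPM (healthy) to 20.7 ± 7.36 CPM (AA) (log2 fold change -1.70 ± 0.26, adjusted p = 2.7e-05). Slc40a1, the iron exporter ferroportin, rose by 0.93 ± 0.15 (adjusted p = 6.5e-05).

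Energy metabolism moved in its cytosolic part. Of 20 glycolysis genes 10 rose and 1 fell (median 0.49), and 6 rose without healthy A and E. Hk2 (ENSMUSG00000000628, GRCm38 chr6:82725025-82774454), the inducible hexokinase, ran from 41.7 to 146 CPM in the healthy libraries, with a median of 73.5, and from 137 to 295 CPM in the AA libraries, with a median of 214. It rose with a small overlap of the groups (log2 fold change 1.45 ± 0.23, adjusted p = 4.0e-05). Pkm rose from 514 ± 240.1 CPM (healthy) to 905 ± 223 CPM (AA) (log2 fold change 0.82 ± 0.22, adjusted p = 0.0060) and Slc2a1, the glucose carrier GLUT1, from 78.1 ± 51.9 CPM (healthy) to 147 ± 51.5 CPM (AA) (log2 fold change 0.91 ± 0.27, adjusted p = 0.011), the latter a call lost without healthy A and E (adjusted p = 0.058). Aldoa (1195 ± 847 CPM in healthy skin, 1445 ± 395 CPM in AA) and Ldha (386 ± 183 CPM in healthy skin, 561.6 ± 126 CPM in AA), which muscle fibres express strongly, did not pass, and Ldhb fell (log2 fold change -0.62 ± 0.16, adjusted p = 0.0034). Genes of mitochondrial respiration were rarely called, with 2 of 81 nuclear genes of oxidative phosphorylation higher and 5 lower, both under the share of all genes. In the citric acid cycle 1 rose and 4 fell of 20, and in fatty acid oxidation 1 rose and 5 fell of 17.

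Detoxifying enzymes fell or did not pass in most cases. Of 25 glutathione transferase and glucuronosyltransferase genes 12 fell and 3 rose (median -0.66). Gstm1 fell from 44.4 ± 10.001 CPM (healthy) to 19.02 ± 6.67 CPM (AA) (log2 fold change -1.22 ± 0.20, adjusted p = 6.9e-05), Mgst1 from 110.5 ± 40.6 CPM (healthy) to 57.6 ± 22.2 CPM (AA) (log2 fold change -0.94 ± 0.24, adjusted p = 0.0034) and Gstz1 from 60.9 ± 26.7 CPM (healthy) to 29.5 ± 10.4 CPM (AA) (log2 fold change -1.05 ± 0.24, adjusted p = 0.0013). Targets of NRF2, the factor of the oxidant response, rose for 9 of 18 and fell for 2, with a median of 0.34 in counts and -0.10 in uncentred TPM. Txnrd1, thioredoxin reductase, rose from 112 ± 28.7 CPM (healthy) to 191 ± 45.0 CPM (AA) (log2 fold change 0.77 ± 0.14, adjusted p = 2.2e-04), and Me1, the malic enzyme of fat synthesis, fell from 278 ± 54.8 CPM (healthy) to 133 ± 18.3 CPM (AA) (log2 fold change -1.07 ± 0.14, adjusted p = 4.2e-06). Retinoid genes were near the share of all genes, with 26.1% higher and 17.4% lower of 23. Aldh1a3, which makes retinoic acid, rose from 8.32 ± 7.10 CPM (healthy) to 82.5 ± 37.1 CPM (AA) (log2 fold change 3.29 ± 0.44, adjusted p = 1.0e-05), and Cyp26b1, which breaks it down, fell from 136 ± 26.6 CPM (healthy) to 46.2 ± 9.30 CPM (AA) (log2 fold change -1.56 ± 0.15, adjusted p = 1.8e-07). The dehydrogenase Dhrs9 rose by 1.89 ± 0.25 on the log2 scale (adjusted p = 5.9e-06). Lipid genes of the barrier were split too, with a rise of Degs2 (2.37 ± 0.28) and a fall of Sptlc3 (-1.21 ± 0.17, adjusted p at most 1.4e-05). Abca12 did not pass (662 ± 185 CPM in healthy skin, 621 ± 164 CPM in AA). Among eicosanoid enzymes 8 rose and 3 fell of 23, with a median of 0.057 in counts and -0.28 in uncentred TPM, led by the phospholipase Pla2g4e (log2 fold change 2.38 ± 0.36, adjusted p = 2.9e-05), and Alox5 fell (log2 fold change -1.01 ± 0.21, adjusted p = 5.6e-04).

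The protein synthesis machinery rose in small steps. Of 20 aminoacyl tRNA synthetases, which charge tRNA with amino acids, 18 rose and 0 fell, with a median of 0.48 in counts and 0.15 in uncentred TPM, where 0 passed. Their summed level was 1273 to 1783 CPM in healthy (median 1327) and 1793 to 2207 CPM in AA skin (median 1960.1), with no overlap. Healthy B held the highest healthy sum, and without it 19 rose. Rars (ENSMUSG00000018848, GRCm38 chr11:35808381-35834506), the arginyl synthetase, ran from 53.5 to 81.9 CPM in the healthy libraries, with a median of 56.6, and from 92.9 to 131 CPM in the AA libraries, with a median of 118. Healthy B was the highest healthy library and lay under every AA library (log2 fold change 0.96 ± 0.12, adjusted p = 2.5e-06). Gars, the glycyl synthetase, rose from 82.2 ± 17.3 CPM (healthy) to 143 ± 20.4 CPM (AA) (log2 fold change 0.80 ± 0.12, adjusted p = 1.5e-05), and Dars did not pass (59.5 ± 7.64 CPM in healthy skin, 62.0 ± 7.98 CPM in AA). Initiation factor genes rose for 29 of 53 and fell for 4, with a median of 0.30 in counts and 0.022 in uncentred TPM. Eif2ak2, the RNA-activated kinase PKR, rose most of those named (log2 fold change 1.397 ± 0.17, adjusted p = 2.1e-06), Eif4g1 rose by 0.41 ± 0.077 (adjusted p = 1.9e-04) and Eif4a2 fell (log2 fold change -0.45 ± 0.085, adjusted p = 2.5e-04).

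Ribosomal protein genes took the other direction, with 25 of 78 lower, 2 higher and a median of -0.16. Rps29 fell from 254 ± 26.4 CPM (healthy) to 179 ± 20.6 CPM (AA) (log2 fold change -0.51 ± 0.088, adjusted p = 1.0e-04) and Rpl39 from 177 ± 13.4 CPM (healthy) to 132 ± 17.1 CPM (AA) (log2 fold change -0.42 ± 0.074, adjusted p = 1.2e-04). As a share of all counts the class held 2.47 ± 0.242% of counts in healthy and 2.23 ± 0.181% in AA skin, which did not pass (exact permutation test, adjusted p = 0.12), but did without healthy F (difference of -0.326 percentage points, adjusted p = 0.040). Genes of the unfolded protein response rose for 14 of 25 and fell for 2, and heat shock and chaperonin genes rose for 13 of 24 and fell for 2. Their medians were 0.34 and 0.26 in counts but -0.043 and -0.064 in uncentred TPM, so their direction holds only relative to all genes. Chac1, a target of ATF4 that degrades glutathione, rose from 6.87 ± 3.31 CPM (healthy) to 59.9 ± 26.1 CPM (AA) (log2 fold change 3.12 ± 0.44, adjusted p = 1.5e-05). Atf4 rose from 93.0 ± 11.98 CPM (healthy) to 142 ± 13.5 CPM (AA) (log2 fold change 0.61 ± 0.084, adjusted p = 9.3e-06), Hspa5, the chaperone BiP, from 341 ± 42.7 CPM (healthy) to 489 ± 72.7 CPM (AA) (log2 fold change 0.52 ± 0.14, adjusted p = 0.0048), and Ddit3 (CHOP) did not pass (16.5 ± 1.98 CPM in healthy skin, 15.5 ± 1.05 CPM in AA). The small heat shock genes Hspb1 and Hspb8 fell, with log2 fold changes of -0.63 ± 0.15 and -0.50 ± 0.085 (adjusted p at most 0.0024).

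Transcription factor families fell more than they rose in nuclear receptors and in the KLF and SP family. Of 31 nuclear receptor genes 15 fell and 4 rose, and their summed level was 2277 to 2466 CPM in healthy (median 2329) and 1593 to 2004 CPM in AA skin (median 1871), with no overlap. Without healthy B 15 members of the list fell. Ppara and Pparg, regulators of lipid use and fat cell formation, fell, with log2 fold changes of -1.55 ± 0.19 and -1.54 ± 0.31, and so did Esr1, the oestrogen receptor (-1.04 ± 0.27, adjusted p at most 0.0041). Vdr, the vitamin D receptor, rose from 117 ± 16.7 CPM (healthy) to 195 ± 38.8 CPM (AA) (log2 fold change 0.73 ± 0.13, adjusted p = 1.6e-04), and Rxra, the shared partner, did not pass (293 ± 38.2 CPM in healthy skin, 253 ± 48.6 CPM in AA). Of 19 KLF and SP genes 10 fell and 2 rose. Klf15 (-1.22 ± 0.21) and Klf11 (-0.95 ± 0.16) fell and Klf13 (0.66 ± 0.14) rose (adjusted p at most 9.1e-04). The epidermal factor Klf4 did not pass (333 ± 73.6 CPM in healthy skin, 280.4 ± 42.8 CPM in AA). Immediate early genes, which respond within minutes to a stimulus, rose for 11 of 25 and fell for 3. Dusp2, a phosphatase of MAP kinases, rose from 2.85 ± 0.611 CPM (healthy) to 17.01 ± 3.60 CPM (AA) (log2 fold change 2.56 ± 0.39, adjusted p = 2.8e-05), and Klf6 fell (log2 fold change -0.46 ± 0.090, adjusted p = 3.0e-04).

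Among ETS genes 7 of 20 rose and 2 fell, with a median of 0.13 in counts and -0.22 in uncentred TPM. Ehf, an epithelial member, rose from 50.5 ± 24.4 CPM (healthy) to 139 ± 35.1 CPM (AA) (log2 fold change 1.46 ± 0.22, adjusted p = 2.2e-05) and Etv4 from 5.12 ± 2.45 CPM (healthy) to 17.97 ± 5.52 CPM (AA) (log2 fold change 1.82 ± 0.27, adjusted p = 2.2e-05). Of the forkhead genes 5 rose and 4 fell of 21, near the share of all genes (20.9% and 19.3%), with Foxm1, a factor of dividing cells, rising (log2 fold change 1.204 ± 0.18, adjusted p = 2.7e-05) and Foxe1 rising from near absence, from 0.447 ± 0.372 CPM (healthy) to 9.65 ± 2.26 CPM (AA) (log2 fold change 4.36 ± 0.79, adjusted p = 2.8e-05). Sox4 rose (log2 fold change 1.04 ± 0.19, adjusted p = 1.5e-04) and the endothelial Sox17 fell (log2 fold change -1.53 ± 0.26, adjusted p = 7.4e-05).

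Beside the background of 20.9% higher and 19.3% lower, immune and stress families are given by their counts. Targets of p53 rose for 5 and fell for 3 of 21 (median 0.020 in counts and -0.32 in uncentred TPM), Mdm2 rising by 0.46 ± 0.086 (adjusted p = 2.1e-04) and Perp not passing (1720.4 ± 342 CPM in healthy skin, 1610.0 ± 255 CPM in AA). Genes of Toll-like receptors and NF-kB rose for 5 and fell for 2 of 23 (median 0.20 in counts and -0.10 in uncentred TPM), and Nfkb1 did not pass (141 ± 9.12 CPM in healthy skin, 153 ± 19.9 CPM in AA). The TNF superfamily rose for 10 and fell for 4 of 34 (median 0.079 in counts and -0.19 in uncentred TPM), with Tnfsf10, the death ligand TRAIL, rising from 20.3 ± 2.73 CPM (healthy) to 87.0 ± 29.5 CPM (AA) (log2 fold change 2.10 ± 0.22, adjusted p = 5.3e-07) and the death receptor gene Fas falling from 12.9 ± 1.43 CPM (healthy) to 8.11 ± 1.67 CPM (AA) (log2 fold change -0.65 ± 0.14, adjusted p = 5.7e-04). C-type lectin receptors rose for 3 and fell for 10 of 28.

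**Figure D4:**
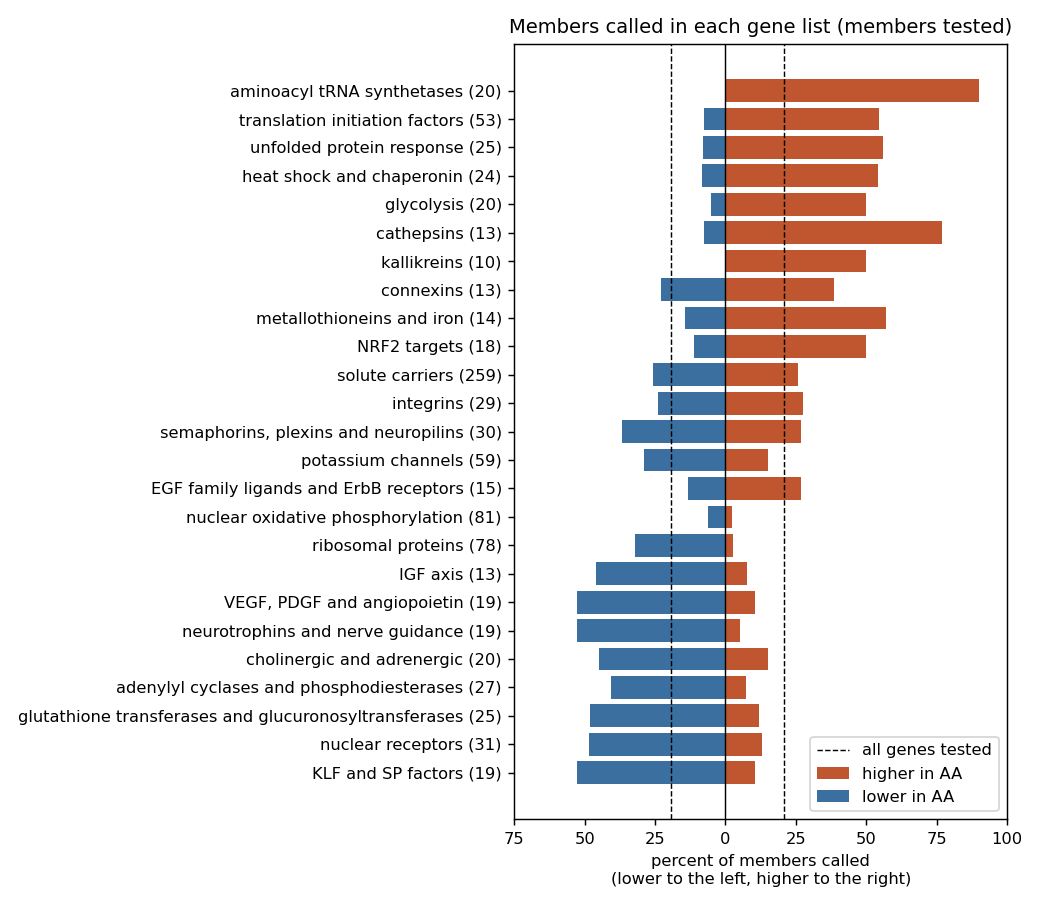
Percent of tested members called higher (bars to the right) and lower (bars to the left) in AA skin for 25 gene families, with the number tested in brackets and dashed lines at the share of all genes (20.9% higher, 19.3% lower). Synthetases, cathepsins and metallothionein and iron genes reach farthest to the right, and KLF and SP factors, neurotrophins and VEGF genes farthest to the left. Families cover from 10 to 259 genes, so the shares differ in precision.

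Noncoding genes were called in both directions. Of 969 long noncoding RNA genes 126 were higher and 130 lower, against 3119 and 2908 of 14177 protein-coding genes. Of 12 small Cajal body RNA genes 7 were lower and 0 higher, and Scarna6, which guides the modification of spliceosomal RNA, fell from 43.0 ± 6.45 CPM (healthy) to 21.4 ± 4.23 CPM (AA) (log2 fold change -1.01 ± 0.12, adjusted p = 2.0e-06). Snord17, a small nucleolar RNA, fell from 401 ± 38.9 CPM (healthy) to 237 ± 59.2 CPM (AA) (log2 fold change -0.76 ± 0.17, adjusted p = 9.0e-04). Of 93 small nucleolar RNA genes 14 were higher and 10 lower. With genes split into 3 equal classes by exon length, the longest class was lower in 24.3% and higher in 20.1%, and the shortest lower in 17.3% and higher in 22.8%. The part of RNA integrity, which the study reports as low, was not tested.

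Counts and TPM ranked the genes alike but differed for some of them. Over 16248 genes Pearson's correlation of the count change with the centred TPM change was 0.914 and Spearman's 0.901, given as a description of genes that share libraries. Of 1146 rises over 2-fold in counts 30 changed by less than 0.25 in centred log2 TPM, as did 51 of 968 falls. Slc7a11, the cystine carrier, rose from 2.72 ± 2.58 CPM (healthy) to 30.7 ± 16.6 CPM (AA) (log2 fold change 3.47 ± 0.58, adjusted p = 6.2e-05), while its mean TPM was 7.05 in healthy and 6.88 in AA skin. Sema4d and Tbxas1 rose by 1.70 ± 0.18 and 1.94 ± 0.38 in counts (adjusted p at most 3.7e-04) and by 0.22 and 0.14 in centred TPM, which did not pass (limma, adjusted p = 0.10 and 0.46). Mmp12, the macrophage elastase, rose by 3.62 ± 0.74 in counts (adjusted p = 5.1e-04) and by 1.15 in centred TPM. The direction of Slc7a11, Sema4d and Tbxas1 thus rests on the count table.

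**Figure D5:**
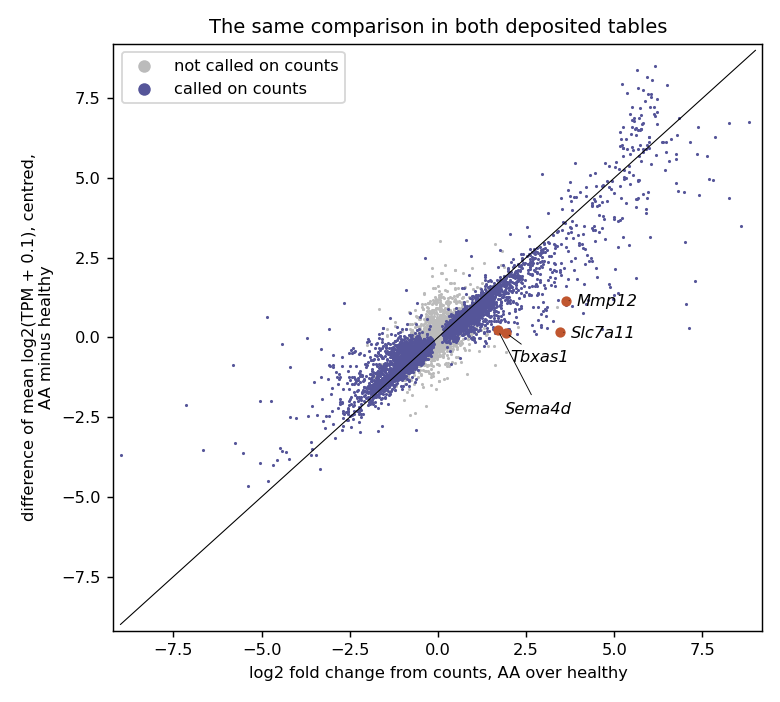
Difference of mean log2(TPM + 0.1), centred on each library's median (vertical axis), against log2 fold change from counts (horizontal axis), AA against healthy, for 16248 genes with the line of equality. Most called genes (violet) follow the line, and Slc7a11, Sema4d, Tbxas1 and Mmp12 (orange) lie far below it.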

How the data were processed

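RNA of whole dorsal skin was sequenced from 6 AA and 6 healthy mice. Per the labels and the study's methods, RNA was extracted with QIAzol and libraries were made with a stranded total RNA kit without fragmentation, although a label also names PolyA RNA. Low integrity of the mouse RNA is the reason the study gives for choosing this kit and leaving out fragmentation. The submitters' processing notes name bcl2fastq, HISAT2 2.0.1, featureCounts 1.4.4 and builds GRCm38 and mm10. The authors deposited whole-number counts per gene and a TPM table. The strand setting, annotation release, handling of multi-mapping reads and TPM tool were not stated (not given in the sources used here). Values of genes that overlap, lie antisense or have a close copy are therefore uncertain. In each file 6 columns matched no sample and were not used. Of 39017 gene IDs 37693 were given a symbol from GENCODE M21.

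Genes were filtered with filterByExpr (minimum count 10), scaled by TMM and tested with edgeR 4.0.16 in R 4.3.3 by the quasi-likelihood test in 1 design over 4 groups and 24 libraries, AA against healthy. The 2 treated groups share mice, which that design does not model. Levels per library are CPM after TMM. TPM were analysed as log2(TPM + 0.1) with limma 3.58.1. Shares of counts by class were compared by the exact permutation test over 6 against 6 libraries (two-sided, smallest p 0.0022), adjusted over the classes. Libraries were taken as separate mice. Where they are not, p-values measure only the spread between samples. In simulated data for this comparison with 200 of 16000 genes changed, 67% of 2-fold, 96% of 4-fold and 98% of 8-fold changes were called, and 4.09% of calls were unchanged genes. The changed genes had a mean of at least 10 counts and changed by 2-fold or more. These shares therefore do not cover smaller changes, or data in which as many genes change as here.

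Named genes are the 15 largest rises and falls with a mean of at least 32 CPM and separated groups. To these come the 12 moderate rises and 12 moderate falls of abundant genes with the smallest adjusted p. Also named are the 2 members of smallest adjusted p and the 2 of highest CPM of each of 81 lists, and called genes with no count in 1 group. Some were left out for length. Some items are not reported here. Irgm1, Oas3, Mt2 and Slc39a3 were chosen after their values were seen, and so was the group of zinc carriers. The comparison and the lists were chosen with earlier results of these data known. Alternatives were RLE and upper-quartile scaling, other filters, the 12 libraries alone, DESeq2 1.42.0, voom, TPM with and without centring, a skeletal muscle covariate, and leaving out libraries.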

Additional observations from a re-analysis of the deposited data

Results flagged for a closer look

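A library was marked where its gap to the nearest of the other 5, divided by the range of its group, exceeded Dixon's 95% critical value. Of 124 groups checked 25 (20.2%) held such a library. The critical value assumes independent values with a normal spread. CPM and shares of counts need not have that spread, and some of the groups checked share genes. The 20.2% therefore cannot be set against a share by chance. Healthy F was the library in 11 of them, healthy B in 9 and AA libraries in 5.

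Healthy F held 0.0157% of counts in hair shaft keratins (group median 0.00216%), 0.0178% in keratin-associated proteins (0.00310%) and 0.0388% in inner root sheath keratins (0.00507%), all under the AA shares. It was also highest of its group in immunoglobulin (0.0110% of counts, median 0.00466%) and lowest in histones (0.0828%, median 0.118%). Its summed CPM was 347 for mast cell markers (median 187) and 1916 for cathepsins (median 1519). Single genes highest in healthy F were C1qa (33.3 CPM, median 12.9), Ctsc (115 CPM, median 59.2), Plac8 (7.03 CPM, median 2.77) and Gsn (2580.2 CPM, median 2055), the last being farther from the AA libraries than the others of its group.

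Healthy B lay nearest to the AA libraries in summed connexins (669.9 CPM, median 441) and tRNA synthetases (1783 CPM, median 1327). The same held for Nr3c1 (209 CPM) and Prox1 (6.68 CPM), where it was lowest, and for Gja1 (338 CPM), Klk6 (65.0 CPM), Rars (81.9 CPM) and Slc39a6 (114 CPM), where it was highest. For Igfbp3 it was highest as well (230.0 CPM), which is away from the AA libraries. Healthy B also had the highest share of mitochondrially encoded counts (5.95%), and the part of this in its other values was not tested.

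Among AA libraries, B held the most hair shaft keratin RNA (0.463% of counts, median 0.230%), C the most Adipoq (63.1 CPM) and Cpa3 (20.6 CPM), E the most Ctss (349 CPM) and F the least Nfatc1 (27.8 CPM).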

How the results depend on the processing

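Of 224 named genes 172 kept their direction and their side of the threshold under every alternative run, 45 lost their call under 1 or more, and uncentred TPM took the most calls. On log2(TPM + 0.1) without centring 641 genes were higher and 1987 lower, and 178 and 96 passed the thresholds of the study. In that setting 39 abundant genes rose and 250 fell moderately. On log2(TPM + 1) the counts were 694 and 2192, 159 and 30, and 41 moderate rises with 268 falls. With centring 78 genes passed the thresholds of the study as lower, and 89 did in the fit of the 12 libraries only, where 293 passed as higher and 2612 genes were higher and 2632 lower in all. Higher calls made up 52.0% of all calls in the reported test, 24.4% in uncentred TPM, 44.4% in centred TPM and 42.8% with upper-quartile scaling. Reversed in uncentred TPM with a pseudocount of 0.1 and 1 were Slc7a11 (-0.10 and -0.078), Tbxas1 (-0.12 and -0.11) and Sema4d (-0.043 and -0.039), and the cause was not tested. Relative to all genes, list medians in TPM moved to 6.98 for hair shaft and matrix, 1.43 for melanocyte, -1.49 for lymphatic endothelium, 0.368 for T cell, 0.979 for monocyte, -0.337 for eosinophil, 0.10 for connexins, 0.0963 for retinoid metabolism, -0.424 for glutathione transferases and glucuronosyltransferases, 0.188 for NRF2 targets and 0.0835 for apoptosis regulators. Without healthy A and E 225 genes passed the thresholds of the study as higher, and mitochondrially encoded genes (-1.39 percentage points) and the adipocyte list (-0.260) passed the test of shares. Leaving out 1 library at a time gave 2924 to 3692 higher and 2800 to 3418 lower, 336 to 421 and 129 to 216 past the thresholds of the study, and 172 to 229 moderate rises and 144 to 198 falls. The same settings gave differences of 0.0397 to 0.0530 percentage points for histones (call lost without healthy A), -0.364 to -0.234 for the sebocyte list (called without healthy B) and -0.326 to -0.196 for ribosomal proteins (called without healthy F). Ctsk, Igf1, Klf4, Ldha and Timp3, not called with all libraries, passed without at least 1 of them. With the replicate letter as a block 3251 genes were higher and 3005 lower, 377 and 146 passed the thresholds of the study, and 185 and 167 changed moderately. Deviations of libraries with the same letter correlated between -0.12 and 0.20, which cannot tell whether a letter marks a shared cage, graft donor or day. Of the healthy libraries only C had the AA library of its own letter as its best match. Depth limited the lowest genes, for which no count in 6 healthy libraries allowed a level of up to 0.0895 CPM (3 counts over the group).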

Other observations

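Some families not described so far are given here beside the 20.9% higher and 19.3% lower of all genes. Among SR proteins and hnRNPs, which guide splicing, 15 of 32 rose and 1 fell (median 0.19 in counts and -0.13 in uncentred TPM). Of apoptosis regulators 14 of 36 rose and 2 fell (median 0.18 and -0.21), and of lysosome and autophagy genes 7 of 28 rose and 1 fell (median 0.015 and -0.24). Of sebaceous gland markers 2 of 12 rose and 4 fell. Among markers of NK cells 3 of 4 rose and 0 fell, and the remaining markers of that list were too low to test.

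Among TPM values 3 short RNA genes held a mean of 21.9% of all TPM in healthy libraries (15.5 to 29.3%) and 36.9% in AA libraries (16.9 to 62.5%). These genes are Gm24245, Gm23935 and Gm24270. Their part in the lower median of all genes in uncentred TPM was not tested beyond the centred values.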
